A study of Mus musculus with 24 samples.

Results

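Testes of mice lacking Nur77 were compared with testes of wild-type mice on 4 of the 24 two-colour cDNA arrays of a study of 6 organs. The 4 arrays were taken by their titles, which name the organ and the replicate. On each, RNA of testes of Nur77-/- mice was hybridised together with RNA of testes of Nur77+/+ mice, 7 pooled mutant animals against 7 pooled wild-type animals. The labelling protocol names a wild-type pool of 6 animals instead, which could not be settled. The mutant pool carried the dye Cy5 on replicates 1 and 2 and Cy3 on replicates 3 and 4. The sources used here give no strain, age or construction of the knockout allele. All values are log2 ratios of mutant over wild type, so that 1 unit is a doubling. That direction is likely but is not stated with the values. Because both groups are single pools, every p-value below measures only how repeatable hybridisations were and carries nothing on variation from animal to animal. The main model pools the spread over the arrays of all 6 organs. Its p-values therefore do not measure the repeatability of the testis arrays alone.

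Nur77, the protein of Nr4a1, is an orphan nuclear receptor whose gene is switched on within minutes by hormones and growth factors. With its relatives Nurr1 (Nr4a2) and Nor-1 (Nr4a3) it binds the element known as the NBRE, a nuclear receptor core sequence preceded by a pair of A bases. In the testis its best known place is the Leydig cell, the testosterone-producing cell between the seminiferous tubules, where luteinising hormone induces it and where promoters of steroid synthesis genes carry sites for it. Inside the tubules Sertoli cells nurse the germ cells, which pass through the stages of spermatogonium, meiotic spermatocyte and spermatid and make up most of the organ.

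To show the element beside the measurements, the letters AAAGGTCA were searched on both strands (TGACCTTT on the other) in the RefSeq promoter sequences of build GRCm38.p6, which run from 250 bases before to 50 bases after a transcription start. Of 32851 promoter entries 495 held it, or 1.51%. Of the 8489 genes with a symbol that were tested in testis, 6847 had an entry, and 82 of these (1.20%) had the letters in at least 1 entry. Of these 82 genes, none passed the test at an adjusted p under 0.05, and 5 had an unadjusted p under 0.05, 4 of them higher and 1 lower in the mutant pool. That share, 6.10%, was close to the 6.47% of all 6847 genes. The windows of 30 bases around the letters are printed below for these 5 genes, 5′ to 3′ on the strand of the gene, with the letters of the element in capitals.
Gga2, chr7:122021320-122021349, minus strand: agcttggctttTGACCTTTcaagtggtctt
Gjb5, chr4:127358340-127358369, minus strand: ggttgggggtgAAAGGTCAaagtgtagggg
Gm597, chr1:28780261-28780290, minus strand: gaggcctcctgAAAGGTCAgatctgtactc
Jph2, chr2:163398031-163398060, minus strand: tagggcaacacTGACCTTTctatcctggga
Mrvi1, chr7:110946178-110946207, minus strand: aattagatgcaAAAGGTCAcctctgcccat
Gga2, which encodes an adaptor of transport from the Golgi to endosomes, had log2 ratios of 0.52, 0.27, 0.86 and 4.38 on replicates 1 to 4. Replicate 4 lay far above the other arrays. Mrvi1, a substrate of cyclic GMP-dependent kinase in smooth muscle, had -0.94, -0.65 and -0.89 on the 3 arrays that measured it, all below 0 and close together. Gjb5, a connexin of gap junctions, had 1.77, -0.85, 0.12 and 2.09, and Jph2, which ties the plasma membrane to the calcium stores of heart muscle, had -0.55, 0.76, 0.84 and 0.05, so both had a value on either side of 0. Gm597 had -1.70, 0.74, 0.86 and 3.799, also on either side and the widest spread of the 5. The adjusted p of the 5 genes lay between 0.462 for Gga2 and 0.700 for Jph2. A match to these letters is a description of the window and not a measured binding site.

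The arrays held 15859, 15513, 17647 and 17904 values for 20205 probes on replicates 1 to 4. The number of arrays limits the precision of each ratio. Averaging the probes of a gene gave 16148 features, each a gene or a probe without a symbol, and 13564 of them could be tested in testis (8489 genes and 5075 probes without a symbol). Replicates 1 and 2, in which Cy5 marked the mutant pool, were the noisier: the middle 50% of their values spanned 1.23 and 0.94 log2 units, against 0.55 and 0.55 on replicates 3 and 4. Across features, a description with no test since genes are not independent replicates, Spearman's rho between arrays of 1 dye orientation was 0.02 and 0.10. Between arrays of opposite orientation it lay from -0.05 to -0.01. A ratio measured with one dye assignment thus said little about the ratio measured with the other: 6966 of the 13564 features (51.36%) had opposite signs in the 2 orientations, 3536 were above 0 in both and 3054 below 0 in both. The SD of a feature over its arrays had a median of 0.60 log2 units.

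**Figure D1:**
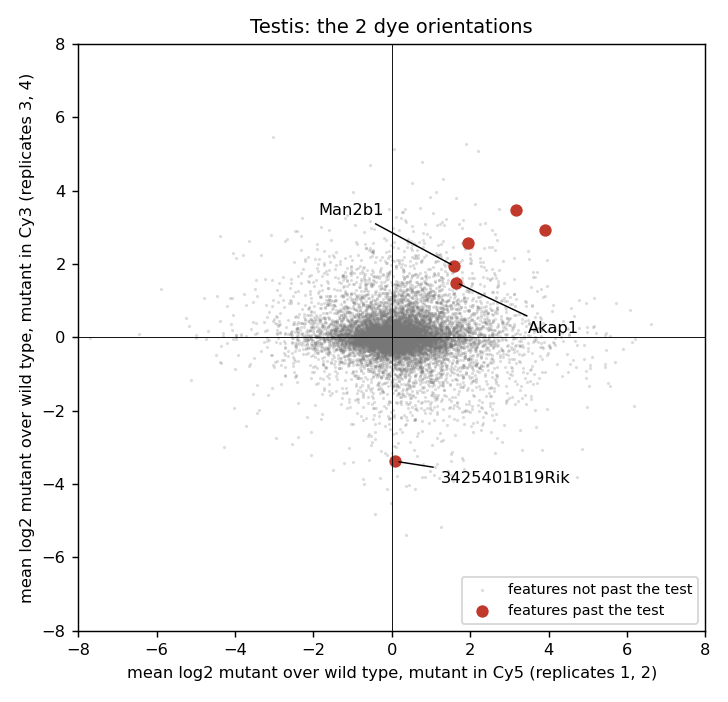
Each point is 1 of the 13564 features tested in testis. The mean log2 ratio of replicates 1 and 2 (mutant in Cy5) is on the x axis and that of replicates 3 and 4 (mutant in Cy3) on the y axis, and red points are the 6 features past the test. The cloud is round about 0 and wider along the x axis, with 51.36% of the features of opposite sign in the 2 orientations.

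Genes of the later germ cells were measured steadily in testis. Ratios give no expression level, so the labelled tissue could not be checked by the levels of its markers, and the spread of the ratios over arrays is given in their place as a description. The 73 spermatid genes with 4 values in testis had a median SD of 0.33 there, against 0.486 to 1.5 in the other 5 organs. The 18 spermatocyte genes had a median SD of 0.31 in testis, against 0.63 to 1.16 elsewhere. All genes with a symbol had a median SD of 0.53 in testis and from 0.42 to 1.04 elsewhere, so both lists were steadier than the typical gene in testis and less steady than it in each other organ. The spermatogonial and Leydig cell lists were not, since 8 and 12 members with 4 values had a median SD of 0.68 and 0.65 in testis. A low spread was not particular to germ cell genes: in testis the median SD was 0.29 for cytosolic ribosomal protein genes, 0.29 for immediate early genes and 0.20 for epididymal genes. What sets the spread was not tested.

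**Figure D2:**
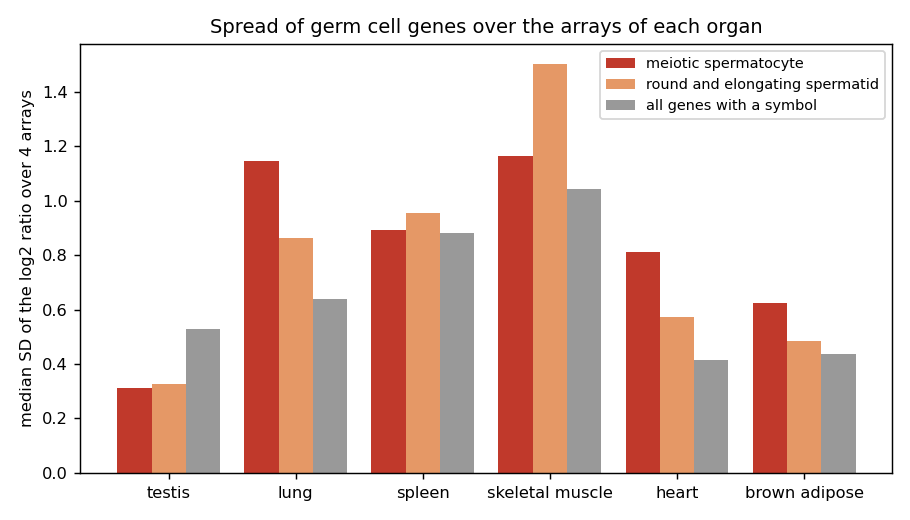
Bars give, for each organ, the median SD of the log2 ratio over 4 arrays for spermatocyte genes, spermatid genes and all genes with a symbol. In testis both germ cell lists lie below all genes, at 0.31 and 0.33 against 0.53, and in the other 5 organs both lie above.

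The targeted gene was the first check. Nr4a1 had log2 ratios of -0.49 on replicate 2, -0.19 on replicate 3 and 0.08 on replicate 4, with a mean of -0.20 ± 0.29 (SD, n = 3 arrays), and its value on replicate 1 lay in the separate mode of extreme values that was treated as not measured. The ratio of the model was -0.16 ± 0.19 (SE, 95% interval -0.56 to 0.23), with an unadjusted p of 0.394 and an adjusted p of 0.9995 by limma. As the values were read, the testis arrays did not register a lower level of the targeted transcript beyond their error, and 1 of the 3 lay above 0. This reading depends on the processing. By limma the ratio was -0.63 (unadjusted p = 0.0194) if the deposited values are Cy5 over Cy3 on every array. Replicates 3 and 4 then change sign, and -0.63 lies below all 3 array values. It therefore rests on the dye term shared with the other organs and not on the testis values alone. With the extreme value kept the ratio was 1.84. In the other organs all 19 measured values were below 0, and the means over arrays were -0.38 in lung, -0.67 in heart, -0.75 in spleen, -1.14 in brown adipose tissue and -1.77 in skeletal muscle. The testis ratio minus the mean of the other 5 organs was 0.79 ± 0.21 (SE), with an unadjusted p of 0.00116 that did not hold after adjustment over 7553 features (adjusted p = 0.174). Where the probe lies relative to the deleted part of the gene is not given in the sources used here, so this check does not settle the genotype of the testis pool.

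The paralogues gave no clearer reading. Nr4a2 was measured on replicates 2 and 4 only, at -3.70 and -1.99, both below 0, which is too few values for the test. Nr4a3 had -2.72 and -1.81 on replicates 1 and 2, and 1.51 and 2.22 on replicates 3 and 4, where the dyes were exchanged. Its sign followed the dye and not the genotype, and the ratio of the model was -0.20 ± 0.53 (adjusted p = 0.9995).

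**Figure D3:**
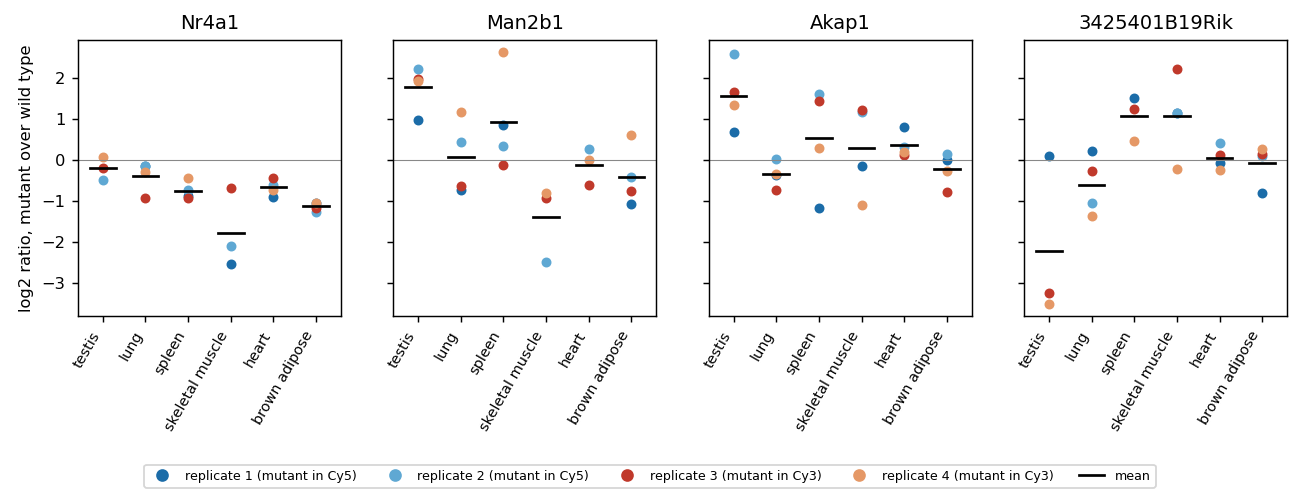
Log2 ratios of mutant over wild type for Nr4a1, Man2b1, Akap1 and 3425401B19Rik in testis and the other 5 organs, 1 point per array coloured by replicate, with the mean of the arrays as a bar. Nr4a1 lies nearest to 0 in testis, with a mean of -0.20, and below 0 on every array of the other organs.

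Of 13564 features, 6 passed the test at an adjusted p under 0.05 (0.0442%), 5 higher (0.0369%) and 1 lower (0.00737%) in the mutant pool. They are 3 named genes and 3 probes without a symbol. Beside each, the ratio of the model can depart from the plain mean of the arrays, because the model weights arrays by their precision and removes a dye term shared by all organs. It fell outside the range of the testis values for 760 features (5.603%), probe_14830 among them, and had the opposite sign to the plain mean for 2651 (19.54%). The array values are therefore given first throughout, and counts of list members above and below 0 by the model carry that limit.

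Man2b1, which encodes the lysosomal alpha-mannosidase that trims sugars from glycoproteins, had log2 ratios of 0.98, 2.21, 1.96 and 1.93 on replicates 1 to 4. All 4 arrays lay above 0 and the mean was 1.77 ± 0.54 (SD, n = 4). The ratio of the model was 1.80 ± 0.30 (SE), a level 3.48-fold higher in the mutant pool (adjusted p = 0.0250). These means come from 3 probes that disagreed: the first gave 2.76 and -0.86 on replicates 1 and 4, the second gave -0.80, 2.21 and 1.47 on replicates 1, 2 and 4, and the third gave 1.96 and 5.17 on replicates 3 and 4. With each probe taken alone, only the second had enough values for the test, and it did not pass (adjusted p = 0.528 by limma). The first and the third, with 2 values each, could not be tested. Leaving out any 1 of the 4 arrays ended the call, with adjusted p from 0.0545 without replicate 1 to 0.353 without replicate 4, while the ratio stayed between 1.70 and 1.88.

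Akap1, which encodes a scaffold that anchors protein kinase A to the outer mitochondrial membrane and has forms expressed in male germ cells, had 0.69, 2.59, 1.65 and 1.34. These 4 values too were above 0, with a mean of 1.57 ± 0.79 (SD, n = 4). The ratio of the model was 1.64 ± 0.25 (SE), a level 3.11-fold higher (adjusted p = 0.00761). The difference came from 1 of 2 probes: it gave 1.35, 5.07, 3.48 and 2.95, and the other gave 0.03, 0.11, -0.18 and -0.26. Taken alone, the first had a ratio of 3.29 ± 0.33 (SE, adjusted p = 0.000733) and the second of -0.04 ± 0.24. Without replicate 2, 3 or 4 the adjusted p of the gene was 0.0554, 0.226 and 0.237, and without replicate 1 it was 0.00811.

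The promoters of both genes are printed because these are the named genes higher in the mutant pool. Neither held the letters of the element, nor did the other 2 of the 3 Akap1 entries, which says only that these letters are not in those windows.
Man2b1, chr8:85083019-85083318, plus strand: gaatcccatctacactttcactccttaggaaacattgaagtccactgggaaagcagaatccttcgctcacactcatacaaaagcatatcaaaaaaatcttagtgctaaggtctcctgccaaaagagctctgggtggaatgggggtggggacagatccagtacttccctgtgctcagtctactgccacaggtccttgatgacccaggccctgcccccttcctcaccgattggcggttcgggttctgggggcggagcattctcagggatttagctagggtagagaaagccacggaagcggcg
Akap1, chr11:88864537-88864836, minus strand: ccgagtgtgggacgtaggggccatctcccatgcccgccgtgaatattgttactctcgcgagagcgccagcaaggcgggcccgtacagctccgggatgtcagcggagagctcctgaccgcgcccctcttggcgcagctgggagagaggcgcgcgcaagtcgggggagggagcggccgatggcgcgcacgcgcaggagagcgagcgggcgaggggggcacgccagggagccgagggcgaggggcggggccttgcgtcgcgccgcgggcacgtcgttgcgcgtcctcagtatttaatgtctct

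The gene listed as 3425401B19Rik was the 1 feature lower in the mutant pool. It had 0.09 on replicate 1 and -3.252 and -3.504 on replicates 3 and 4, with no value on replicate 2. Both arrays with the mutant pool in Cy3 were far below 0 and the 1 array with it in Cy5 was at 0. The mean was -2.22 ± 2.01 (SD, n = 3), and the ratio of the model was -2.92 ± 0.37 (SE, adjusted p = 0.00316). Its call therefore rests on 1 dye orientation, and its SE draws on the spread over the arrays of the other organs as well.

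The 3 probes without a symbol were each measured on 3 arrays and lay above 0 on all of them. They are listed as probe_14321, probe_14830 and probe_9502 and no gene is given to them here. The first had 4.61, 1.74 and 3.48, the second 1.96, 2.45 and 2.73, and the third 3.91, 3.04 and 2.84. Their model ratios were 3.31, 2.76 and 3.30, with adjusted p of 0.00761, 0.00316 and 0.00564.

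These 6 calls depended on the model. With equal array weights limma called 0 features (512 at an unadjusted p under 0.05). With the testis arrays fitted alone it called 0 both without weights (994) and with them (700), and with a dye term for each organ it called 0 (933). Leaving out replicates 1 to 4 in turn gave 3, 3, 1 and 0 calls, and without replicate 4 there were 436 features at an unadjusted p under 0.05. With 1 array left out, a feature needed a value on all 3 that remained. The gene 3425401B19Rik and the 3 probes without a symbol have 3 values each. Each could then be tested only when the array it lacked was left out. Without replicate 4 only Man2b1 and Akap1 of the 6 could be called, so these counts partly reflect the filter. All 6 ratios change sign if the deposited values are Cy5 over Cy3 on every array, and then 26 features pass, 14 higher and 12 lower in the mutant pool.

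At an unadjusted p under 0.05 the model gave 907 features (6.69%), 574 higher (4.23%) and 333 lower (2.46%). Of the 9727 features with 4 values, 1278 had 1 sign on all 4 arrays (13.1%), 664 above 0 (6.83%) and 614 below 0 (6.31%). Beside Man2b1 and Akap1, the genes of that kind with the largest mean in each direction follow as values, since none passed the test.

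Above 0, Tpsb2, a tryptase of mast cells, had 3.11, 1.31, 4.44 and 5.73, with a mean of 3.65 ± 1.89 (SD, n = 4) and an adjusted p of 0.226. Ctsw, a cathepsin of cytotoxic lymphocytes, had 0.76, 2.03, 5.80 and 0.67 (adjusted p = 0.400). Both are genes of immune cells, and both had a range over arrays wider than their mean. Podxl, the sialomucin podocalyxin of vessel walls and kidney podocytes, had 4.65, 0.49, 0.59 and 4.31 (adjusted p = 0.153). Dnajc7, a co-chaperone of Hsp70 and Hsp90, had 6.79, 1.94, 0.71 and 0.17, so its mean of 2.40 rests on replicate 1 (adjusted p = 0.930). The fifth, Tspo, is a steroid synthesis gene and is given with the Leydig cell list.

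Below 0, Treml2, a receptor of myeloid and lymphoid cells, had -3.83, -3.06, -2.94 and -1.17, with a mean of -2.75 ± 1.12 (SD, n = 4) and an adjusted p of 0.186. Itm2c, a BRICHOS-domain membrane protein, had -2.59, -4.21, -3.36 and -0.60 (adjusted p = 0.400). Cacnb1, a beta subunit of voltage-gated calcium channels, had -1.89, -2.06, -2.77 and -0.92 with a mean of -1.91 ± 0.76 (SD, n = 4), the tightest of the 5 (adjusted p = 0.186). In these 3 genes replicate 4 lay nearest to 0. Fam136a had -1.43, -4.89, -1.47 and -1.66, with replicate 2 far from the other 3 (adjusted p = 0.260). Cyb561, an electron-carrying cytochrome of secretory vesicles, had -4.49, -0.35, -2.27 and -0.18, which scatter over most of the range (adjusted p = 0.493).

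**Figure D4:**
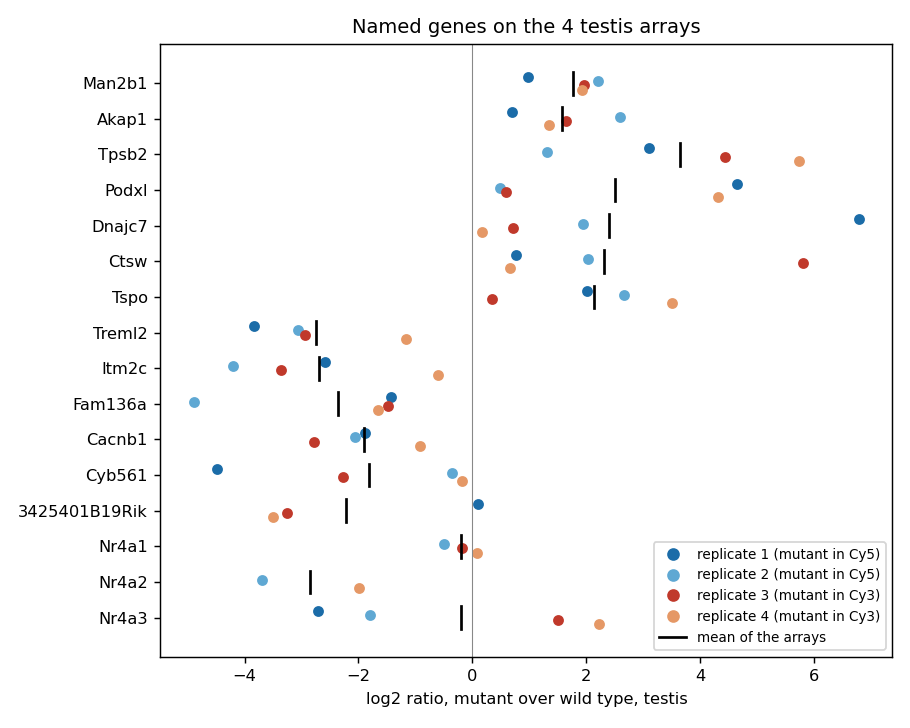
Log2 ratios on the 4 testis arrays for the named genes past the test, the genes with the largest means of 1 sign on all arrays, and the NR4A genes, coloured by replicate, with the mean as a bar. Man2b1 and Akap1 lie above 0 on all 4 arrays, 3425401B19Rik is near 0 on replicate 1 and below -3 on replicates 3 and 4, and Nr4a3 changes sign with the dye.

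Genes of the Leydig cell and of steroid synthesis, where Nur77 has its best known role in testis, showed no member past the test among the 18 of 24 on the array that could be tested. By the model 11 were above 0 and 7 below, with a median over the 18 of 0.30 by the model (0.02 by the array means), against -0.0050 by the model over all features. The 12 members with 4 values had a median array mean of 0.32, against 0.02 for all genes with 4 values, so the median depends on which members are taken. In whole-organ RNA, fewer cells of a type and less RNA per cell cannot be told apart. Star, which carries cholesterol into the mitochondrion for the first step of steroid synthesis, had -0.95, -0.19, 0.09 and -0.56, a mean of -0.40 ± 0.45 (SD, n = 4), and a model ratio of -0.48 with an unadjusted p of 0.174. It was below 0 on 3 of its 4 arrays, within the error. Hsd17b3, the enzyme of the last step to testosterone in Leydig cells, had -0.93, -2.41 and -0.26, all below 0 (unadjusted p = 0.249). Cyp17a1, the 17-hydroxylase and lyase of androgen synthesis, had 3.17, -4.31 and -0.36 and so gave no reading. Cyp11a1, which cleaves the cholesterol side chain, was measured on 2 arrays (-0.13 and -3.17) and Hsd3b1 on 1 (-1.22), which is too few for the test.

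Other members of the list went either way. Tspo, a cholesterol-binding protein of the outer mitochondrial membrane abundant in steroid-making cells, had 2.02, 2.67, 0.34 and 3.503. It was above 0 on all 4 arrays with a mean of 2.13 ± 1.34 (SD, n = 4). By limma it was the 1 member with an unadjusted p under 0.05, at 0.0217, with an adjusted p of 0.603. That is 5.56% of those tested, against 6.69% of all features. Acsl4, an acyl-CoA synthetase that acts on arachidonic acid, had 2.86, 2.32 and 0.67, above 0 on its 3 arrays (unadjusted p = 0.158). Nr5a1, the receptor SF-1 that drives steroid synthesis genes, had -0.29, 0.42, 0.28 and 1.98 (unadjusted p = 0.0880 by limma). Of its 3 probes, 1 gave 3.61 on replicate 4 and -1.26 on replicate 1. Scarb1, which takes up cholesterol from lipoproteins, had 2.66, -4.79 and 1.77 and changed sign within a dye orientation. Of the members with 4 values, 1 (Tspo) was above 0 on all 4 arrays and 2 were below 0 on all 4. These were Stard5 at -0.41, -1.78, -0.13 and -0.09 and Sqle at -0.62, -0.195, -0.12 and -0.02.

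Sertoli cell genes were evenly placed, 11 above and 11 below 0 of 22 tested, with a median of -0.02 by the model and 0.18 by the array means, and none past the test. At an unadjusted p under 0.05 there were 2, both higher, or 9.09%. Of all features 6.69% reached it in either direction and 4.23% in that direction. The values of these 2 genes are given as a description. Defb36, a beta-defensin, had 1.27, 3.07 and -0.0010 (unadjusted p = 0.0120). Drd4, a dopamine receptor, had -0.44, 1.64 and 1.67 (unadjusted p = 0.0136). Each had 1 array at or below 0. Cldn11, the claudin of the Sertoli cell barrier, had -0.19, 0.06, 0.06 and 0.16, and Inha, the inhibin alpha subunit, had 0.72, -0.89, -0.37 and -0.44. Rhox5, an androgen-responsive homeobox gene of these cells, had 0.42, 1.77 and -3.53. Tjp1, a tight junction scaffold, had 0.10, 3.90, 0.12 and 0.26, so that replicate 2 stood apart from the other 3.

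Among germ cells, spermatogonial genes had 15 members tested of 20 on the array and none past the test. At an unadjusted p under 0.05 there was 1 (6.67%, against 6.69% of all features). By the model 8 were above 0 and 7 below, with a median of 0.05, against 0.41 by the array means. The gene Zbtb16, the 1 under 0.05, is the transcription factor PLZF that keeps spermatogonial stem cells, and it had 2.57, 1.94 and 1.45 on its 3 arrays. All were above 0, with a mean of 1.98 ± 0.56 (SD, n = 3), an unadjusted p of 0.0235 and an adjusted p of 0.618. Other genes of these cells lay near 0 or scattered: Etv5 had 0.34, 0.23, 0.0010 and -0.0015, and Id4 had 2.45, -0.79 and 0.23. Foxo1 had 3.05, -1.78, -0.28 and 0.0030, which puts its largest and smallest values within 1 dye orientation. Taf4b, a TFIID subunit needed to maintain spermatogenesis, had 0.93, 0.45 and 1.99 (unadjusted p = 0.238).

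Spermatocyte genes were quiet: of 24 tested, none passed and none had an unadjusted p under 0.05. Their 18 members with 4 values had a median array mean of -0.03, and 88.9% lay within 0.5 log2 units of 0, a 1.41-fold difference, against 79.2% of all genes with 4 values. Stag3, a meiotic cohesin subunit, had 0.01, -0.33, 0.11 and 0.02. Piwil2, a PIWI protein of the piRNA pathway, had -0.12, 0.04, -0.18 and -0.21. Syce2, of the synaptonemal complex, had -0.02, -0.05, -0.11 and 0.10, and Ldhc, the germ cell lactate dehydrogenase, had -0.36, 0.10, 0.17 and -0.12. On every array these 4 genes, chosen after their values were seen, were within 0.5 of 0. Others of the list were not: Msh5 had -1.43 and 1.51 on replicates 3 and 4, Tdrd5 had -3.00 on replicate 1 and Dnajb3 had -1.33 on replicate 3. Piwil1, the PIWI protein of pachytene cells, had 3.002 on replicate 1 and 0.19, -0.18 and -0.18 on the others.

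Spermatid genes, the largest list with 84 tested of 90 on the array, had none past the test. Unadjusted p under 0.05 was reached by 3 (3.57%), 2 higher and 1 lower, a share below that of all features. By the model 54 were below 0 and 30 above, with a median of -0.13, while the 73 members with 4 values had a median array mean of -0.04 and 90.4% of them lay within 0.5 of 0. The protamine Prm1, which packs sperm DNA, had -0.02, -0.33, -0.36 and -0.34. The transition protein Tnp1, which replaces histones before the protamines do, had -0.04, -0.19, -0.07 and -0.13. Both were below 0 on all 4 arrays by small amounts, with means of -0.26 ± 0.16 and -0.11 ± 0.07 (SD, n = 4) and unadjusted p of 0.163 and 0.248. Odf1, of the outer dense fibres of the tail, had -0.19, -0.13, 0.06 and -0.19. Crem, the transcription factor of the spermatid programme, had -0.08, 0.03, -0.17 and -0.28, and Spata4 had -0.21, -0.39, -0.11 and -0.27. These 5 genes, chosen after their values were seen, stayed within 0.5 of 0 on every array. Others of the same families did not: Prm2 reached 0.70 and Tnp2 -0.68 on replicate 2, Odf2 reached -1.22 on replicate 2, and Prm3 reached -1.92 on replicate 4.

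Larger ratios in the spermatid list follow as values. Acrv1, the acrosomal antigen SP-10, had 1.17, 1.13, 1.07 and 0.62, above 0 on all 4 arrays in both dye orientations with a mean of 0.996 ± 0.26 (SD, n = 4). Its unadjusted p was 0.0437 and its adjusted p 0.723, and both its probes were above 0 wherever measured. Agfg1, needed to form the acrosome, had 5.69, -0.28, 0.31 and 2.61, a spread that leaves no single direction (unadjusted p = 0.00625). Catsper2, a subunit of the sperm calcium channel, had -0.29, -0.49, 0.05 and -1.16 (unadjusted p = 0.0383). Pgk2, the germ cell phosphoglycerate kinase, had -0.32, -0.14 and 2.06, and Tbpl1, a TBP-like factor needed in spermatids, had -1.32, -0.74 and 1.95, so in both replicate 4 opposed the others. Acr, the acrosomal protease acrosin, had 0.77, 0.70, 0.22 and 0.17, likewise above 0 on all 4 arrays (unadjusted p = 0.227).

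**Figure D5:**
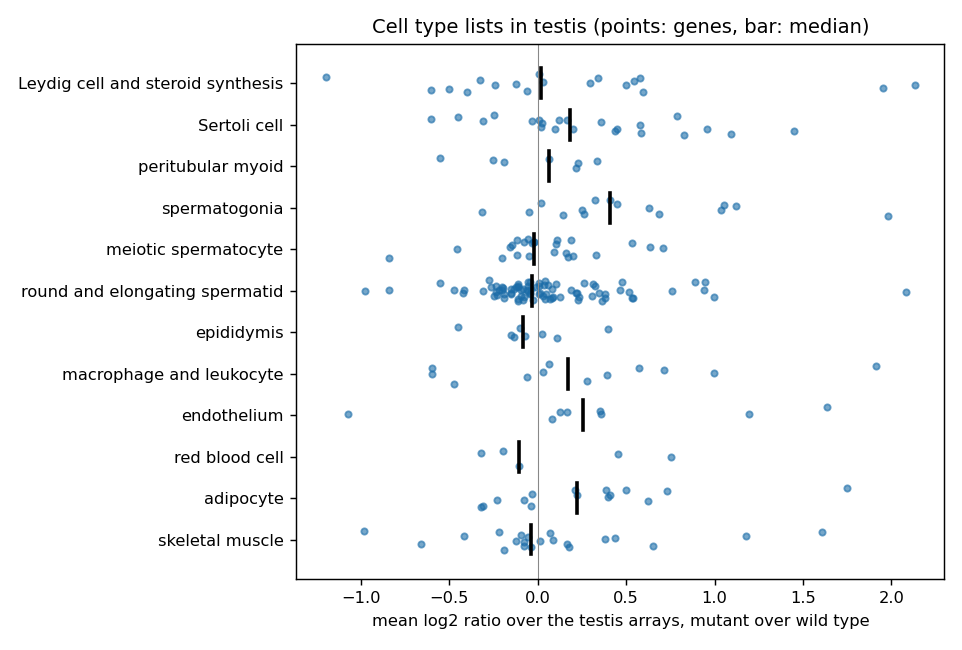
Each point is the mean log2 ratio of 1 tested gene over the testis arrays, grouped by cell type list, with the median of the list as a bar. Most spermatocyte and spermatid genes lie close to 0, while Leydig, Sertoli and leukocyte genes are more scattered.

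Lists for the remaining cell types of the testis and for other tissue had no member past the test either. Of macrophage and leukocyte genes 12 of 18 could be tested, and 3 of these (25%) had an unadjusted p under 0.05, all higher, against 4.23% of all features in that direction. The antigen-presentation chain Cd74 had -0.11, 0.45, 0.68 and 0.56. The pan-leukocyte phosphatase Ptprc had 3.54, 3.72, -0.06 and 0.46, and the adaptor Tyrobp had -0.48, 1.92, -0.45 and 1.30. Each of the 3 had an array below 0, and no list member was above 0 on all 4 arrays. Over the 12 members 5 were above 0 and 7 below by the model, with a median of -0.03 by the model and 0.17 by the array means, and Cd68, Lyz2, Fcgr3 and Cd8a were among those below. Of the blood cell genes given above, Tpsb2 and Ctsw had means above 0 and Treml2 below 0. The part of leukocytes in these values was not tested. Endothelial genes had 1 of 8 with an unadjusted p under 0.05, the receptor Tie1 at -0.61, -1.57 and -1.04, below 0 on its 3 arrays. That is 12.5%, against 6.69% of all features, and over the 8 genes 6 were above 0 and 2 below, with a median of 0.14. Peritubular myoid, epididymal, red blood cell and adipocyte genes had none, of 7, 8, 5 and 15 tested.

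Skeletal muscle genes were tested for tissue carried over, with 1 higher and 1 lower of 21 at an unadjusted p under 0.05 (9.52%, against 6.69% of all features). The myosin light chain Myl1 had 0.73, 2.83, 0.82 and 0.34, above 0 on all 4 arrays, with an unadjusted p of 0.000603 and an adjusted p of 0.226. The giant filament protein Neb had -1.11, -0.23, -0.85 and -0.44, below 0 on all 4 (unadjusted p = 0.0143). By the model 12 members were above 0 and 9 below, with a median of 0.03 by the model and -0.04 by the array means. The part of carried-over muscle was not tested.

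The testis ratio was then set against the mean ratio of the other 5 organs, to find where the testis differed from the rest of the series. Of 7553 features tested in all 6 organs, 4 passed at an adjusted p under 0.05 (0.053%), 1 higher (0.0132%) and 3 lower (0.0397%) in testis, and 673 had an unadjusted p under 0.05 (8.91%). Man2b1 was the higher, with a difference of 2.07 and an adjusted p of 0.0286. It averaged 1.77 in testis, against 0.06 in lung, 0.92 in spleen, -1.40 in skeletal muscle, -0.11 in heart and -0.42 in brown adipose tissue. Without replicate 2, 3 or 4 its adjusted p was 0.0845, 0.386 and 0.206. The gene 3425401B19Rik was lower by a difference of -3.31 (adjusted p = 0.00113): it averaged -2.22 in testis, against -0.62 to 1.08 in the other organs.

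The other 2 are probes without a symbol whose ratio stood near 0 in testis. Probe_19294 had 0.13, 0.30, 0.10 and 0.18 in testis, a mean of 0.18 ± 0.09 (SD, n = 4), against means of 0.69 in lung, 1.19 in spleen, 6.39 in skeletal muscle, 0.48 in heart and 0.35 in brown adipose tissue. It was above 0 on all 24 arrays. The difference was -1.65 ± 0.14 (SE, adjusted p = 1.09e-06), and it held with each testis array left out. Probe_121 had -0.35, -0.03, 0 and 0.28 in testis, against means of 0.30 to 0.52 in lung, spleen, heart and brown adipose tissue and 5.30 in skeletal muscle. Its difference was -1.35 (adjusted p = 0.00333). Without replicate 3 or 4 the adjusted p was 0.180 and 0.0612. In both probes the mean of the other organs was drawn mostly from skeletal muscle, and no gene is given to them here.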

How the data were processed

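Each array has 1 log2 ratio per probe, as deposited by the authors. How these log2 values were normalized, centred and background-corrected, and with which software, is not given in the sources used here. Cyanine dyes were coupled indirectly to cDNA made from 20 µg of total RNA, per the labels' protocols. The log base was read from the values. The 615 testis values above 12 in size (0.919%) form a separate mode from 16.9 upwards, all with the sign of Cy5 over Cy3, and were treated as missing; the other testis values reach 7.70 in size.

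Probes with 1 symbol in the platform annotation (13891 of 20205, with 5 having several and 6309 none) were averaged by symbol. Of these, 13855 were found by Entrez number in RefSeq, which changed no symbol. A feature needed 3 testis values and both dye orientations. In R 4.3.3, limma 3.58.1 fitted 1 model to all 24 arrays with 6 organ coefficients, 1 dye term and array weights, and Benjamini-Hochberg adjustment ran over all features tested. The procedure was also run on simulated data with independent normal noise, no dye effect and the array weights that the model had estimated. That run does not test the weights or the dye term, on which the calls depend.

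The comparison, the members, the lists, the tests and the use of weights were chosen with earlier results of these data known. The rule for named genes takes the NR4A genes, the 10 highest and lowest past the test with 1 sign on every array, or, where fewer than 5 pass in a direction, the 5 largest means of 1 sign on all 4 arrays, and up to 6 members of each testis cell type list by size of ratio. It also takes genes past the test of testis against the other organs. Other genes, among them 3425401B19Rik in testis, the steady germ cell genes, the 5 promoter genes and the members of lists given below, were chosen after their values were seen. The heart array of replicate 2, whose wild-type channel is labelled skeletal muscle, was kept.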

Additional observations from a re-analysis of the deposited data

Results flagged for a closer look

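Over the 4 testis arrays, 3 of the 25 named genes with 4 values had 1 array far from the other 3, where chance flags about 1 in 20 groups. Many of these genes were named for a large mean or ratio, which 1 extreme array can give, so that rate cannot be applied to them. For Fam136a it was replicate 2 at -4.893, for Tjp1 replicate 2 at 3.901 and for Piwil1 replicate 1 at 3.002. Both arrays carried the mutant pool in Cy5, the noisier orientation, and its part in these values was not tested.

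In 4 features the testis ratio differed from the mean of the other 5 organs by limma's test. The difference was 2.073 for Man2b1 and -3.313 for 3425401B19Rik, which were far from 0 in testis itself. It was -1.653 for probe_19294 and -1.35 for probe_121, which were near 0 in testis and far above 0 in skeletal muscle.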

How the results depend on the processing

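The count of 6 features past limma's test in testis became 0 with equal array weights (512 at an unadjusted p under 0.05), 0 with the testis arrays fitted alone (994), 0 with these fitted alone with weights (700, an alternative added after seeing the data) and 0 with a dye term per organ (933). It became 11 with no dye term, 1 with arrays centred and scaled, 2 over complete features only, and 0 to 3 with 1 testis array left out. Over complete features only Man2b1 and Akap1 of the 6 could be tested. With 1 array left out, the others of the 6 could be tested only when the array they lacked was the one left out. The same limit held for 3425401B19Rik in the differences from the other organs. Read as Cy5 over Cy3, the count in testis was 26, with 14 higher and 12 lower against 5 and 1. The 4 differences between testis and the other organs became 1 with equal weights, 7 with no dye term, 2 with each organ's own dye term, 7 with arrays centred, 0 with arrays centred and scaled (472 at an unadjusted p under 0.05), 8 with the separate mode kept, 2 read as Cy5 over Cy3, 30 with each probe kept apart, and 1 to 8 with 1 testis array left out. Nr4a1 became 1.84 with the separate mode kept and -0.63 read as Cy5 over Cy3 (unadjusted p = 0.0194 by limma), which is below all its testis array values. Read that way, signs reversed for 3425401B19Rik (3.001), Akap1 (-0.65), Man2b1 (-1.11), probe_14321 (-1.10), probe_14830 (-2.02) and probe_9502 (-1.55), and so did the differences of 3425401B19Rik (2.89), Man2b1 (-0.94), probe_121 (0.0099) and probe_19294 (0.031). Reading the values as Cy5 over Cy3 changes the sign of replicates 3 and 4 in every organ. In testis these arrays had the larger weights, 2.503 and 2.883, against 0.6276 and 0.7997 for replicates 1 and 2. As read here, Nr4a1 was below 0 on every array of the other organs that measured it, in both dye orientations. Read as Cy5 over Cy3, it would be above 0 there on replicates 3 and 4 wherever measured. Which reading holds was not tested. Akap1 passed under 7 of 16 alternatives and Man2b1 under 6 of 16. With the replicate number as a block the counts were 7 and 4. Same-numbered arrays of testis and other organs did not deviate together (10 correlations across features from -0.02 to 0.02). With single arrays this noisy a weak pairing would not show, so the check cannot exclude one. Leaving out heart replicate 2 left 3 differences.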

Other observations

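Gene groups beyond the cell types also had no member past limma's test in testis, and the genes named here were chosen after their values were seen. Of 65 subunits of oxidative phosphorylation tested, 5 were higher and 1 lower at an unadjusted p under 0.05 (9.23%, against 6.69% of all features). The steadiest was Ndufv2, a complex I subunit, at 1.33, 1.19 and 1.62 on its 3 arrays, with an adjusted p of 0.300. Ndufb11, of the same complex, had 0.74, 1.69 and 0.97 (adjusted p = 0.231). Both were above 0 on their 3 arrays, while the median model ratio over the 65 was 0.03. Of 28 proteasome subunits 3 were higher (10.7%, against 4.23% of all features in that direction). Among them were Psma2 at 2.85, 2.30 and 1.84 (adjusted p = 0.271) and Psma7 at 2.35, 0.64 and 1.81 (adjusted p = 0.400). The median over the 28 was 0.01 by the model and -0.0031 by the array means. These 4 genes were each measured by 1 probe on 3 arrays.

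Other nuclear receptors had 21 members tested, with 2 higher and 1 lower at an unadjusted p under 0.05 (14.3%, against 6.69% of all features). By the model 9 were above 0 and 12 below, with a median of -0.23. The vitamin D receptor Vdr had 1.33, 0.95, 1.13 and 4.99, above 0 on all 4 arrays, with an adjusted p of 0.400. One of its 2 probes taken alone passed, at a ratio of 3.32 (adjusted p = 0.0477). Of 16 immediate early genes tested, 2 were higher (12.5%, against 4.23% of all features in that direction). These were Ccn2 at 1.88, -0.16, 0.36 and 1.09 and Ier3 at -0.23, 0.94 and 0.84. By the model 9 of the 16 were above 0 and 7 below, with a median of 0.07. Cytosolic ribosomal protein genes had 1 higher and 2 lower of 51 (5.88%, against 6.69% of all features), with a median of -0.02. Heat shock genes (19 tested) and cell cycle genes (27 tested) had none. Flagellum genes had 2 higher and 1 lower of 49 (6.12%), sperm metabolism genes 1 higher of 19 (5.26%), and apoptosis genes 1 lower of 12 (8.33%). These shares stand beside the 6.69% of all features.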
